A study of Homo sapiens with 4 samples.

Results

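Collagen VIII and collagen X, the short-chain collagens, and the collagen-binding receptors were examined as 9 genes: the chains COL8A1, COL8A2 and COL10A1, the discoidin domain receptors DDR1 and DDR2, and the integrin alpha chains ITGA1, ITGA2, ITGA10 and ITGA11. They were selected by gene symbol, and all 9 were among the 61806 genes of the deposited count table. The samples were 2 libraries of U251-MG cells infected with lentivirus carrying the COL8A1 overexpression vector (COL8A1 cells) and 2 libraries of U251-MG cells infected with the negative control vector (NC cells). U251-MG is an established human glioblastoma line, listed with a WT genotype in both groups. Both vectors had the pCDH-CMV-MCS-EF1-puro backbone, in which a viral promoter drives the inserted cDNA and puromycin resistance is carried alongside. Nothing in the labels says that libraries of 1 group are separate cultures, or whether the cells are a pool or 1 clone, so the p-values reflect library-to-library spread alone, possibly technical. In such bulk RNA, a higher level per cell and a larger share of cells that carry the insert cannot be told apart.

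Collagen VIII is a non-fibrillar collagen that assembles into hexagonal networks, best known in the membrane under the corneal endothelium and in the walls of blood vessels. Its alpha 1 and alpha 2 chains are encoded by COL8A1 and COL8A2. Collagen X, encoded by COL10A1, has the same short-chain build and marks the hypertrophic cartilage of growth plates. Each chain has a triple helix, in which glycine recurs as 1 residue of each triplet, followed by a globular C1q-like domain that starts trimer assembly. Cells sense collagens through 2 receptor classes. DDR1 and DDR2 are receptor tyrosine kinases that are activated by native triple helices. The integrins pair an alpha chain with an inserted collagen-binding domain, ITGA1, ITGA2, ITGA10 or ITGA11, with the common beta chain ITGB1.

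The repeat that defines these chains can be read in their coding sequences, taken from GENCODE release 29 (GRCh38), and the stretches below show where it ends in each chain. Glycine is encoded by GGN, so the triple helix appears as a GGN codon in each triplet of codons. Each line gives the last 45 coding bases of the helix and the 30 bases after it, 5′ to 3′ on the coding strand, with the GGN codons of the repeat in capitals.
COL8A1: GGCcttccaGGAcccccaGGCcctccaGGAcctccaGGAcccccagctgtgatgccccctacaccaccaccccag
COL8A2: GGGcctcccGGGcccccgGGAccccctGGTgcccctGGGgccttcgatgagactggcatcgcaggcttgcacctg
COL10A1: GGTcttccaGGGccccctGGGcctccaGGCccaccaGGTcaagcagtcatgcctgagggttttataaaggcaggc
The COL8A1 stretch lies at chr3:99795570-99795644 on the plus strand, the COL8A2 stretch at chr1:36098043-36098117 and the COL10A1 stretch at chr6:116120529-116120603, both on the minus strand. Each lies within 1 coding exon.

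The 3 chains share this layout along their length. COL8A1 has 744 codons, COL8A2 703 and COL10A1 680. Counting runs of at least 4 triplets, the helix of COL8A1 is made of 6 runs with 125 triplets in all. That of COL8A2 has 7 runs with 131 triplets, and that of COL10A1 7 runs with 132. In each chain 1 long run is followed by 1 shorter run before the helix ends, and the long run has 61 triplets in COL8A1, 60 in COL8A2 and 61 in COL10A1. The coding part after the helix, which holds the C1q-like domain, is 173, 167 and 161 codons long in COL8A1, COL8A2 and COL10A1. In a global alignment of these ends, COL8A1 and COL8A2 were identical at 66.0% of aligned bases. COL8A1 and COL10A1 were identical at 61.7%, and COL8A2 and COL10A1 at 61.2%.

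**Figure D1:**
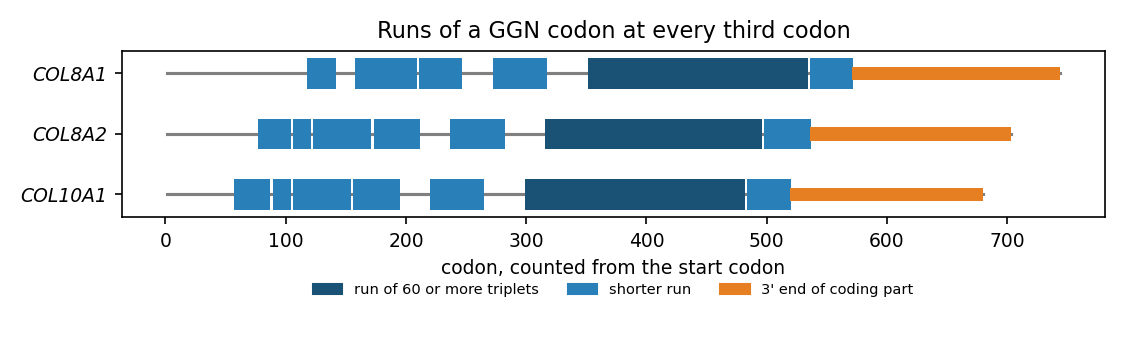
Coding sequences of the 3 short-chain collagens drawn to scale, with codons counted from the start codon on the x axis. Blue blocks are runs of 1 GGN codon per triplet of codons, the dark block is the run of 60 or 61 triplets, and orange marks the 173, 167 and 161 codons after the helix in COL8A1, COL8A2 and COL10A1.

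The libraries held between 27923796 and 33576228 counts, TMM scaling factors (edgeR's correction for composition) ran from 0.993 to 1.01, and values below are TMM-scaled CPM (counts scaled to library size) unless stated. Of 17030 genes that passed the low-count filter, 2 passed the edgeR quasi-likelihood test at an adjusted p of 0.05 (0.0117%), and 1033 (6.07%) had an unadjusted p under 0.05, of which 585 (3.44% of the genes tested) were higher and 448 (2.63%) lower in COL8A1 cells. DESeq2 called 180 (1.06%). Of the 9 genes, 6 passed the filter: COL8A1, DDR1, DDR2, ITGA1, ITGA2 and ITGA10. None of the 6 was called by edgeR after adjustment, and COL8A1 was the only 1 with an unadjusted edgeR p under 0.05 and the only 1 called by DESeq2. COL8A2, COL10A1 and ITGA11 fell under the filter and have no test in the main fit. With no low-count filter, their edgeR adjusted p was 0.970 for COL8A2 and 0.855 for COL10A1 and ITGA11.

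The comparison first asks how far the vector raised COL8A1, the gene it carries (ENSG00000144810, chromosome 3, 99638475 to 99799226, plus strand). COL8A1 had 4290 and 2259 counts in COL8A1 replicates 1 and 2, against 77 and 82 counts in NC replicates 1 and 2. As CPM it was at 135 and 81.3 in the COL8A1 libraries, against 2.51 and 2.43 in the NC libraries. The groups were far apart, and every library stood on the side its label gives; non-overlapping groups were also seen in 37.5% of all genes tested. The NC libraries agreed closely, whereas the first COL8A1 library had 1.66 times the level of the second. With exact Poisson 95% intervals, which cover counting error only, the COL8A1 libraries were at 131 to 139 and 78.0 to 84.7 CPM, so they differed by more than counting error.

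The group means were 108 ± 37.9 CPM in COL8A1 cells and 2.47 ± 0.0552 CPM in NC cells (SD, n = 2 each). Set against the NC mean, COL8A1 was 54.6-fold higher in COL8A1 replicate 1 and 32.9-fold higher in COL8A1 replicate 2. The edgeR log2 fold change was 5.45, with an SE of 0.315 and a 95% interval of 4.62 to 6.28, which is 24.6-fold to 77.7-fold. The unadjusted edgeR p was 2.16e-05, the 5th smallest of all genes tested, and the adjusted edgeR p was 0.0681, above the threshold of 0.05. The DESeq2 adjusted p was 6.25e-72. In edgeR the adjusted p was 0.0313 without COL8A1 replicate 2, where the log2 fold change was 5.77, and 0.00737 without a low-count filter. Over 13 other settings the log2 fold change ran from 5.04 to 5.77 and the adjusted p from 6.25e-72 to 0.202, the highest being that of limma-voom. A count per gene does not separate reads of the inserted cDNA from reads of the cell's own gene.

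**Figure D2:**
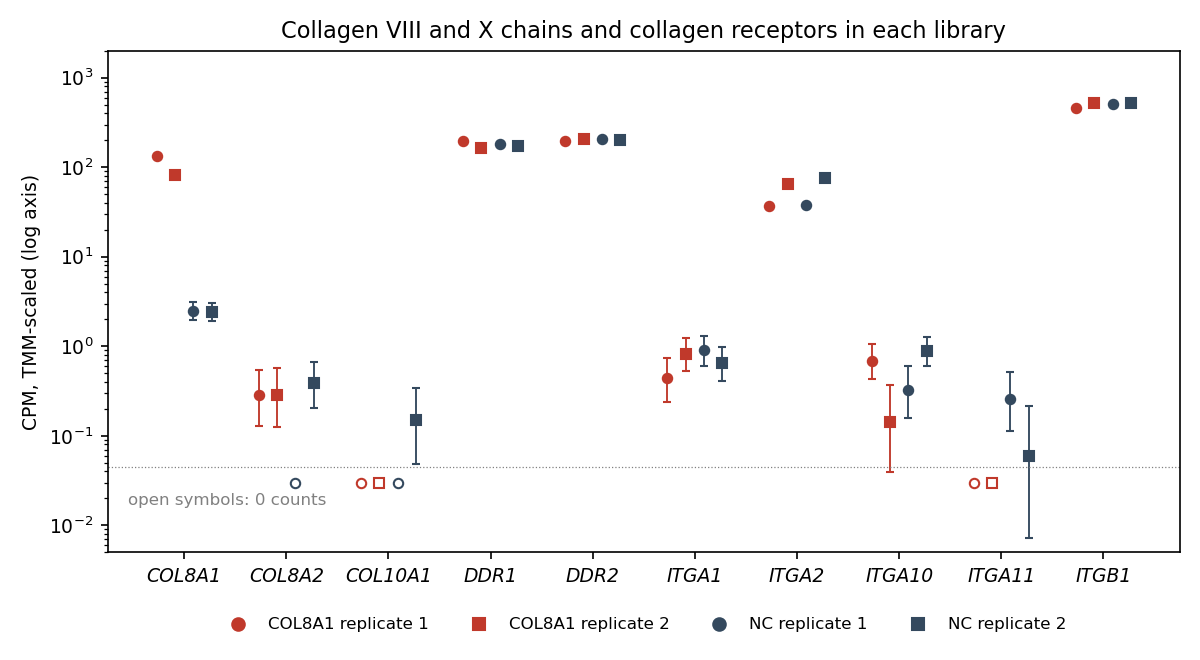
CPM of the 9 genes and of ITGB1 in each of the 4 libraries, on a log axis, with exact Poisson 95% intervals for counting error. COL8A1 is at 135 and 81.3 in the COL8A1 libraries (red) and at 2.51 and 2.43 in the NC libraries (dark). Open symbols mark libraries with 0 counts.

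The overexpression moved COL8A1 among the collagen chains. COL8A1 took 4.87% of the counts of all 44 collagen chain genes in COL8A1 replicate 1 (exact binomial 95% interval 4.73% to 5.02%) and 3.07% in COL8A1 replicate 2 (2.95% to 3.20%). In the NC libraries it took 0.101% (0.0801% to 0.127%) and 0.0979% (0.0778% to 0.121%). Divided by annotated exon length, the level was 14.3 and 8.64 CPM per kb in the COL8A1 libraries, against 0.267 and 0.258 CPM per kb in the NC libraries. COL8A1 was thus the 8th collagen chain of 44 by level per length in both COL8A1 libraries, and the 24th in both NC libraries.

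In COL8A1 cells the neighbours of COL8A1 in that order were COL9A3, a chain of the fibril-associated collagen IX, and COL4A5, a basement membrane chain of collagen IV. COL9A3 was at 16.7 and 14.4 CPM per kb in the COL8A1 libraries and COL4A5 at 8.03 and 6.42 CPM per kb. COL8A1 lay below COL9A3 and above COL4A5 in both libraries, and the ranges of the 3 chains nearly met but did not overlap. The highest chain per length was COL5A2 of the fibrillar collagen V, at 74.1 and 68.5 CPM per kb in COL8A1 cells and 60.6 and 62.8 CPM per kb in NC cells. The COL8A1 gene has 9408 bases of annotated exon but 2232 coding bases, and the labels do not give the length of the inserted cDNA. Divided by the coding length alone, the level was 60.4 and 36.4 CPM per kb in the COL8A1 libraries. In the NC libraries it was 1.12 and 1.09 CPM per kb. This length was chosen after the data were seen and was not applied to the other chains. The place of COL8A1 among the collagens is thus not settled. By counts, COL8A1 was 7th in both COL8A1 libraries and 23rd in both NC libraries.

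**Figure D3:**
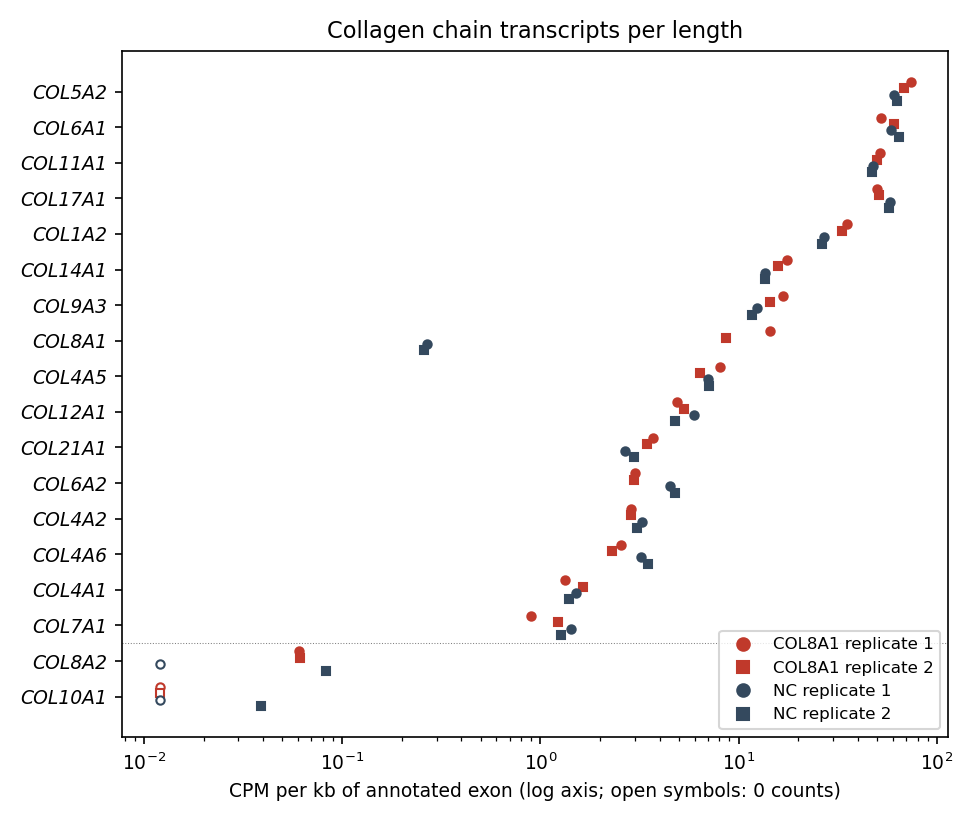
Level per length (CPM per kb of annotated exon, log axis) of the 16 collagen chains highest in COL8A1 cells, with COL8A2 and COL10A1 below the dotted line, in each of the 4 libraries. COL8A1 stands 8th, at 14.3 and 8.64 in the COL8A1 libraries and at 0.267 and 0.258 in the NC libraries. Open symbols mark libraries with 0 counts.

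The other short-chain collagens were barely detected in either group. COL8A2 (ENSG00000171812, chromosome 1, 36095236 to 36125220, minus strand), whose product can trimerize with that of COL8A1 or with itself, had 9 and 8 counts in the COL8A1 libraries and 0 and 13 counts in the NC libraries. As CPM it was at 0.283 and 0.288 in COL8A1 cells, against 0 and 0.385 in NC cells. The groups overlapped, since the lowest and the highest library were both NC. The Poisson 95% intervals of the counts were 4.12 to 17.1 and 3.45 to 15.8 in the COL8A1 libraries, against 0 to 3.69 and 6.92 to 22.2 in the NC libraries. The intervals of the NC libraries did not overlap each other, so these libraries differed by more than counting error. With few counts and this spread within the NC group, a difference between the vectors was not detectable. Per length, COL8A2 was at 0.0611 ± 0.000737 CPM per kb in COL8A1 cells, where COL8A1 was at 11.5 ± 4.03 CPM per kb. In NC cells COL8A2 was at 0.0413 ± 0.0583 CPM per kb, and COL8A1 at 0.263 ± 0.00587 CPM per kb (SD, n = 2 each).

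COL10A1 (ENSG00000123500, chromosome 6, 116118923 to 116158747, minus strand) had 0 counts in both COL8A1 libraries and 0 and 5 counts in the NC libraries. All of its counts came from NC replicate 2. By the Poisson 95% interval, 0 counts allow up to 0.116 and 0.133 CPM in the COL8A1 libraries and up to 0.120 CPM in NC replicate 1. A difference between the vectors was not detectable at this depth, since the interval of the 5 counts in NC replicate 2 was 1.62 to 11.7 counts and that of 0 counts reaches 3.69. Of 11 markers of hypertrophic cartilage, the tissue of collagen X, 8 had at most 10 counts over the 4 libraries, and COL2A1, MMP13 and IBSP had none. The others were RUNX2, MEF2C and SPP1, which are transcribed in many cell types, and none of these 3 was called in edgeR or DESeq2 or had an unadjusted edgeR p under 0.05.

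The second question was whether the collagen receptors moved with the vector. The discoidin domain receptors were the best measured of them and had nearly equal levels in both groups. DDR2 (ENSG00000162733, chromosome 1, 162631373 to 162787400, plus strand), which mainly binds fibrillar collagens, had 195 and 207 CPM in the COL8A1 libraries, against 206 and 204 CPM in the NC libraries. The groups overlapped, and the highest library was 1.06 times the lowest. The log2 fold change was −0.03 (SE 0.064, edgeR adjusted p = 0.956). Its 95% interval of −0.20 to 0.14 runs from 0.872-fold to 1.10-fold.

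DDR1 (ENSG00000204580, chromosome 6, 30876421 to 30900156, plus strand), which also binds the network-forming collagen IV, had 195 and 166 CPM in the COL8A1 libraries, against 183 and 174 CPM in the NC libraries. Both NC libraries lay between the COL8A1 libraries, of which the first was the higher, as it was for COL8A1 itself. A relation of this order to the COL8A1 level was not tested. The log2 fold change was 0.01 (SE 0.100, edgeR adjusted p = 0.993). Its 95% interval was −0.25 to 0.28, from 0.841-fold to 1.21-fold. Changes of 2-fold in either direction thus lay outside the intervals of both discoidin domain receptors.

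ITGB1 (ENSG00000150093, chromosome 10, 32900319 to 33005792, minus strand), the beta chain that each collagen-binding alpha chain needs, had the highest level per length of the receptor genes, at 80.8 ± 7.58 CPM per kb in COL8A1 cells and 85.5 ± 1.25 CPM per kb in NC cells (SD, n = 2 each). It had 453 and 518 CPM in the COL8A1 libraries, against 509 and 519 CPM in the NC libraries. Both COL8A1 libraries were below the higher NC library, but the groups overlapped. The log2 fold change was −0.08 (SE 0.081, 95% interval −0.30 to 0.13, edgeR adjusted p = 0.886).

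ITGA2 (ENSG00000164171, chromosome 5, 52989326 to 53094779, plus strand) had the highest level per length of the 4 collagen-binding alpha chains. It had 36.8 and 64.8 CPM in COL8A1 replicates 1 and 2, against 37.7 and 75.0 CPM in NC replicates 1 and 2. The libraries fell into a low and a high pair, and each pair held 1 library of each group: both libraries numbered 1 were low and both numbered 2 were high. The library numbered 2 had 1.76 times the level of the library numbered 1 in COL8A1 cells and 1.99 times in NC cells. The group means were 50.8 ± 19.8 CPM in COL8A1 cells and 56.3 ± 26.4 CPM in NC cells (SD, n = 2 each). Between the vectors the log2 fold change was −0.15 (SE 0.426, edgeR adjusted p = 0.970), with a 95% interval of −1.27 to 0.97, from 0.414-fold to 1.96-fold. With the replicate number as a block the estimate was −0.12 (SE 0.118, edgeR adjusted p = 0.949). Without NC replicate 2 it was 0.43 and without COL8A1 replicate 2 it was −0.62. The labels do not say what the replicate numbers stand for, and what sets the pairs apart was not tested.

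The other 3 alpha chains were near the limit of detection. ITGA1 (ENSG00000213949, chromosome 5, 52787896 to 52959210, plus strand), the alpha chain of the integrin that prefers collagen IV, had 14 and 23 counts in the COL8A1 libraries, against 28 and 22 counts in the NC libraries. In CPM these were 0.440 and 0.827 in COL8A1 cells, against 0.912 and 0.652 in NC cells, and the groups overlapped. The log2 fold change was −0.31 (SE 0.534, 95% interval −1.71 to 1.10, edgeR adjusted p = 0.941). ITGA1 shares 475 bases of exon on its strand with PELO, a ribosome rescue factor. PELO had 683 and 635 counts in the COL8A1 libraries, against 738 and 805 in the NC libraries, and how reads in shared bases were counted is not stated, so the low ITGA1 counts are uncertain.

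ITGA10 (ENSG00000143127, chromosome 1, 145891208 to 145910189, minus strand), a cartilage collagen receptor chain, had 22 and 4 counts in the COL8A1 libraries, against 10 and 30 counts in the NC libraries. The lowest library was a COL8A1 one and the highest an NC one, with the other two in between. edgeR gave a log2 fold change of −0.52 (SE 0.932, 95% interval −2.98 to 1.93, edgeR adjusted p = 0.942). Without COL8A1 replicate 1 it was −2.05, and without NC replicate 2 it was 0.36.

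ITGA11 (ENSG00000137809, chromosome 15, 68296533 to 68432162, minus strand), the alpha chain of a fibroblast receptor for collagen I, had 0 counts in both COL8A1 libraries, against 8 and 2 counts in the NC libraries. The groups did not overlap, which 37.5% of the genes tested also showed. The upper Poisson 95% limit of a count of 0 is 3.69, and the interval of NC replicate 2 was 0.242 to 7.22 counts. No fold is given for ITGA11, since these intervals overlap. With no low-count filter, edgeR gave ITGA11 an adjusted p of 0.855.

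**Figure D4:**
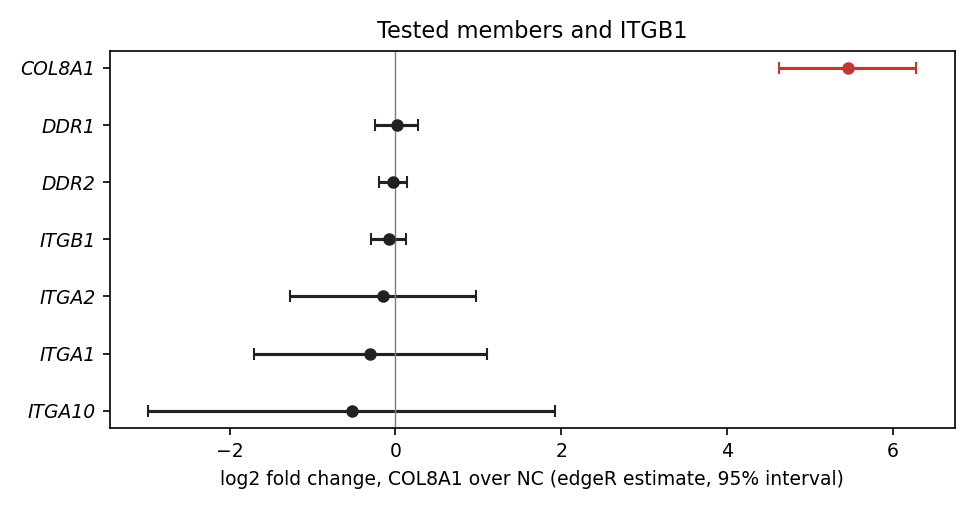
edgeR log2 fold changes, COL8A1 over NC, with 95% intervals from the SE, for the 6 tested genes and ITGB1. COL8A1 is at 5.45, with an interval of 4.62 to 6.28, and the intervals of the others span 0, being narrow for DDR1, DDR2 and ITGB1 and wide for ITGA2, ITGA1 and ITGA10.

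In order of level per length in NC cells, the 9 genes stood as DDR1 at 19.6 ± 0.681, DDR2 at 19.1 ± 0.161 and ITGA2 at 7.12 ± 3.33 CPM per kb (SD, n = 2). COL8A1 followed at 0.263 CPM per kb, and ITGA10, ITGA1, COL8A2, COL10A1 and ITGA11 lay between 0.0961 and 0.0147 CPM per kb. In COL8A1 cells the order at the top was DDR1 at 19.8 ± 2.27, DDR2 at 18.7 ± 0.729, COL8A1 at 11.5 ± 4.03 and ITGA2 at 6.42 ± 2.51 CPM per kb. COL8A1 was above ITGA2 in both COL8A1 libraries and below it in both NC libraries. DDR1 and DDR2 did not differ beyond the spread between the COL8A1 libraries, where the 2 ranges overlapped. The gap between their levels depends on the length used. By the longest annotated transcript, DDR1 was at 43.5 and DDR2 at 19.8 CPM per kb in COL8A1 cells. In NC cells DDR1 was at 43.1 and DDR2 at 20.2 CPM per kb by that length. COL8A1 in COL8A1 cells was at 18.9 CPM per kb by its longest transcript, still 3rd by mean. By its coding length it was at 48.4 CPM per kb. That length was not applied to DDR1 and DDR2, so the place of COL8A1 against them is not settled. Among the 5 lowest genes, neighbours in the order overlapped in the NC libraries, except that ITGA10, at 0.0516 to 0.141 CPM per kb, lay just above ITGA1, at 0.0351 to 0.0491 CPM per kb. This gap depends on the annotated exon lengths. In CPM, with no length applied, ITGA10 was at 0.326 and 0.889 and ITGA1 at 0.912 and 0.652 in the NC libraries, which overlap. In COL8A1 cells ITGA10, COL8A2 and ITGA1 followed at 0.0661 ± 0.0613, 0.0611 ± 0.000737 and 0.0341 ± 0.0148 CPM per kb, where ITGA10 overlapped with both of the others.

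With each library left out in turn, COL8A1 kept its direction in all 4 fits, with log2 fold changes of 5.04 to 5.77. The receptors did not keep theirs. Leaving out COL8A1 replicate 1 gave DDR1 a log2 fold change of −0.11 and DDR2 0.0093, against 0.01 and −0.03 with all libraries. None of the 5 receptors was called in any of these fits.

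**Figure D5:**
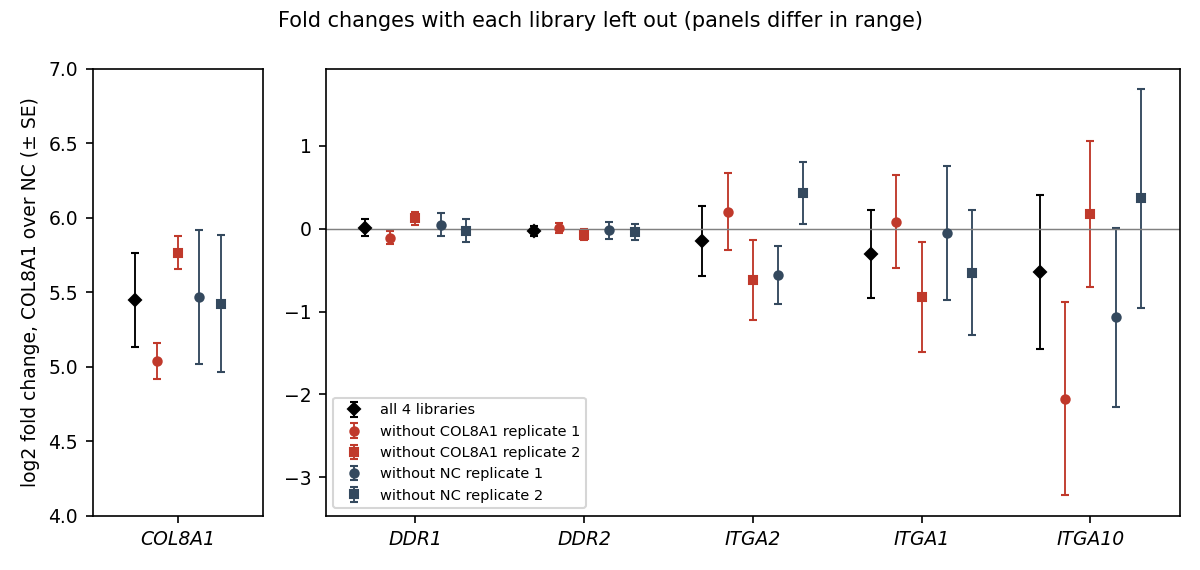
edgeR log2 fold changes (COL8A1 over NC, ± SE) with all 4 libraries and with each library left out, for COL8A1 on the left and the 5 tested receptors on the right. COL8A1 stays between 5.04 and 5.77, while the receptors lie around 0, and ITGA10, the lowest of them in counts, runs from −2.05 to 0.36.

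The pattern most like that of COL8A1 was sought among 717 other tested genes whose mean was 5 CPM or more and whose libraries spanned a range of at least 1 on the log2 CPM scale, by Pearson's r over the 4 libraries. CRY2, a circadian clock repressor, had the highest r, 1.00, with 9.37 and 8.35 CPM in the COL8A1 libraries, against 2.64 and 2.67 CPM in the NC libraries. IQCE, a protein of the primary cilium, followed (r = 0.999), with 31.6 and 29.8 CPM in the COL8A1 libraries, against 14.2 and 14.6 CPM in the NC libraries. VAPB, an anchor of the endoplasmic reticulum membrane, came next (r = 0.996), with 96.3 and 91.4 CPM in the COL8A1 libraries, against 38.7 and 35.1 CPM in the NC libraries. With 4 points in 2 groups, r is high for any gene that clearly parts the groups with COL8A1 cells higher. The r is given as a description.

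The partners of the integrins and of the discoidin domain receptors were counted in lists, which were not tested as sets. Over all genes tested, 50.2% had a log2 fold change above 0 and the median was 0.001. An unadjusted edgeR p under 0.05 was found in 6.07%, 3.44% higher and 2.63% lower, and DESeq2 called 1.06%. Of 19 genes for ITGB1 and its cytoplasmic adaptors, 17 were tested, with 8 higher and 9 lower and a median of −0.02. None was called in edgeR or DESeq2, and 1 had an unadjusted edgeR p under 0.05. This was TLN2, a talin that links integrins to actin, at 97.0 and 104 CPM in COL8A1 cells, against 117 and 114 CPM in NC cells. The edgeR adjusted p of TLN2 was 0.813, with a log2 fold change of −0.20 (SE 0.075). FERMT1, a kindlin that activates integrins, was at 137 and 118 CPM against 108 and 111 CPM in NC cells, and PARVA, an actin-binding parvin, at 84.6 and 87.5 CPM against 82.4 and 72.1 CPM in NC cells.

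Of 17 genes of discoidin domain receptor signalling and shedding, 16 were tested, with 10 higher and 6 lower and a median of 0.02. None was called in edgeR. Over all genes tested, 6.07% had an unadjusted edgeR p under 0.05 and DESeq2 called 1.06%. In this list 1 gene was under 0.05, and the same gene was called in DESeq2. It was SHC1, an adaptor that binds activated receptor tyrosine kinases, at 158 and 160 CPM in the COL8A1 libraries, against 213 and 215 CPM in the NC libraries. The 2 groups were well apart and the libraries within each nearly equal (log2 fold change −0.43, SE 0.059, edgeR adjusted p = 0.347, DESeq2 adjusted p = 0.000798). MMP14, the membrane protease that can shed DDR1, had a log2 fold change of 0.26 (SE 0.177).

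Of 15 other collagen receptors and matrix receptors, 8 were tested, with 5 higher and 3 lower and a median of 0.07. None was called in edgeR or DESeq2, and 1 had an unadjusted edgeR p under 0.05, against 6.07% over all genes tested. In all libraries 6 of the 15 had 0 counts, among them the platelet receptor GP6 and the leukocyte receptor LAIR1. ITGB3, the beta chain of the vitronectin receptor, was at 3.05 and 3.38 CPM in COL8A1 cells, against 1.56 and 1.57 CPM in NC cells. This was the gene under 0.05, with a log2 fold change of 1.03 (SE 0.257) and an edgeR adjusted p of 0.653. The log2 fold change was −0.20 (SE 0.085) for SDC4, a cell surface proteoglycan, and 0.22 (SE 0.154) for MRC2, an endocytic collagen receptor.

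Of 29 genes whose products share the C1q-like domain with collagens VIII and X, 13 had 0 counts throughout and 9 were tested. Of these 7 were higher and 2 lower, with a median of 0.21. None was called in edgeR, 2 were higher at an unadjusted edgeR p under 0.05 and 1 was called in DESeq2. Over all genes tested, 3.44% were higher at that p and DESeq2 called 1.06%. C1QTNF1, a secreted C1q and TNF-related protein, was at 338 and 305 CPM in the COL8A1 libraries, against 202 and 231 CPM in the NC libraries. Both COL8A1 libraries were above both NC libraries (log2 fold change 0.57, SE 0.097; adjusted p of 0.457 in edgeR and 0.00306 in DESeq2). C1QL1, a secreted synaptic protein, was at 4.12 ± 1.25 CPM in COL8A1 cells and 1.98 ± 0.374 CPM in NC cells (SD, n = 2 each), with a log2 fold change of 1.05 (SE 0.337, edgeR adjusted p = 0.762). For C1QTNF2, of the same family as C1QTNF1, the log2 fold change was 0.48 (SE 0.358).

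Genes of chain maturation and export, through which an overexpressed collagen has to pass, went both ways, with 12 of 25 tested genes higher and 13 lower, a median of −0.003 and none called in edgeR or DESeq2 or under an unadjusted edgeR p of 0.05. The smallest p-values were those of CRTAP, of the prolyl hydroxylase complex that modifies collagen chains (log2 fold change 0.11, SE 0.054), SEC24D, of the COPII coat (0.25, SE 0.127), and FKBP10, a collagen chaperone of the endoplasmic reticulum (0.27, SE 0.147).

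Of 14 matrix-remodelling enzymes, 11 were tested, with 7 higher and 4 lower and a median of 0.24. None was called in edgeR, 3 were higher at an unadjusted edgeR p under 0.05 and 2 of these were called in DESeq2. Over all genes tested, 3.44% were higher at that p and DESeq2 called 1.06%. PXDN, a peroxidase that cross-links collagen IV, was at 878 and 846 CPM in COL8A1 cells, against 667 and 680 CPM in NC cells. Its adjusted p was 0.358 in edgeR and 0.00926 in DESeq2, at a log2 fold change of 0.36 (SE 0.051). MMP2, a gelatinase, was at 443 and 341 CPM in COL8A1 cells, against 253 and 245 CPM in NC cells. Its adjusted p was 0.580 in edgeR and 0.0137 in DESeq2, at a log2 fold change of 0.65 (SE 0.137). Its first COL8A1 library was the higher, as for COL8A1, and a relation of this order to the COL8A1 level was not tested. CTSK, a collagen-degrading cathepsin, was at 2.95 ± 1.12 CPM in COL8A1 cells and 1.46 ± 0.0537 CPM in NC cells (SD, n = 2 each), with a log2 fold change of 1.01 (SE 0.371).

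Marker lists were read beside these values. Of 10 astroglial and glioma markers, VIM, NES, SOX2, SOX9 and CD44 were abundant. S100B was at 1.36 to 2.58 CPM over the libraries, CHI3L1 at most 0.0943 CPM and ALDH1L1 at 0. GFAP, the intermediate filament of astrocytes, was at 1.94 ± 0.148 CPM in COL8A1 cells and 0.624 ± 0.0856 CPM in NC cells (SD, n = 2 each), with a log2 fold change of 1.63 (SE 0.346). SLC1A3, an astrocyte glutamate transporter, was at 52.7 and 59.2 CPM in COL8A1 cells, against 27.2 and 27.2 CPM in NC cells. Its log2 fold change was 1.04 (SE 0.105), with an adjusted p of 0.165 in edgeR and 2.52e-10 in DESeq2. Of the 10 markers, 8 were tested and all 8 were higher in COL8A1 cells, with log2 fold changes from 0.051 for VIM to 1.63 for GFAP. Of these, 3 had an unadjusted edgeR p under 0.05, with none called in edgeR and 1 in DESeq2. Over all genes tested, 50.2% were higher, 3.44% were higher at that p and DESeq2 called 1.06%. All 6 fibroblast markers were tested and higher, with log2 fold changes from 0.031 for DCN to 1.40 for FAP. Of these, 2 had an unadjusted edgeR p under 0.05 and none was called in edgeR or DESeq2. Their sum was 961 and 761 CPM in COL8A1 cells and 650 and 698 CPM in NC cells. Nearly all of it came from PDGFRA and THY1. PDGFRA was at 708 and 514 CPM in COL8A1 cells, against 462 and 496 CPM in NC cells. THY1 was at 248 and 242 CPM in COL8A1 cells, against 184 and 198 CPM in NC cells. COL1A1, DCN, LUM and FAP were each at most 2.70 CPM in any library. Smooth muscle and pericyte markers, 8 in number, summed to 127 to 139 CPM in COL8A1 cells and 127 to 135 CPM in NC cells. Most of it came from MCAM, at 125 and 112 CPM in COL8A1 cells and 112 and 118 CPM in NC cells. The 8 endothelial markers summed to 67.8 to 85.8 CPM in COL8A1 cells and 71.5 to 72.1 CPM in NC cells, nearly all of it from CDH5, an adherens junction cadherin, at 78.2 and 60.1 CPM in COL8A1 cells and 62.8 and 62.5 CPM in NC cells. TEK, an angiopoietin receptor, was at 5.91 ± 0.315 CPM in COL8A1 cells and 6.57 ± 0.351 CPM in NC cells (SD, n = 2 each), while ERG was at 0 and PECAM1 under 0.5 CPM. The 6 epithelial markers summed to 497 to 519 CPM in COL8A1 cells and 466 to 467 CPM in NC cells, mostly as keratins, with EPCAM at most 0.119 CPM. These close sums hide opposite shifts between replicate numbers. In COL8A1 replicates 1 and 2, CLDN4 was at 98.8 and 1.65 CPM and KRT8 at 289 and 399 CPM. In NC replicates 1 and 2, CLDN4 was at 86.2 and 1.04 CPM and KRT8 at 263 and 349 CPM. The 7 immune and platelet markers summed to 3.93 to 4.64 CPM in COL8A1 cells and 4.92 to 5.81 CPM in NC cells, with AIF1, CD3E and PF4 at 0. None of the tested genes of the last 4 lists was called in edgeR or DESeq2, and 1, of the smooth muscle list, had an unadjusted edgeR p under 0.05. The part of any of these in the values above was not tested.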

How the data were processed

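The authors deposited raw read counts per gene, not normalized, for 4 libraries of total RNA. Trim Galore 0.6.9, HISAT2 2.2.1, featureCounts 0.3 and the build hg38 are listed, per the submitters' processing notes, with the parameters, strand setting and annotation release not given in the sources used here. One line that named no gene and held no counts was left out. Groups and replicate numbers came from the titles. The 2 libraries of each group differed by more than sampling noise (chi-square per degree of freedom of 33.8 in COL8A1 and 31.1 in NC).

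Tests were run in R 4.3.3 with edgeR 4.0.16: filterByExpr, TMM factors and the quasi-likelihood F-test on group alone, with Benjamini-Hochberg adjustment over 17030 genes. The fit had 2 residual and 2.64 prior degrees of freedom. The SE is the absolute log2 fold change over the square root of F, and intervals follow from it and the total degrees of freedom. An exact permutation test of 2 against 2 libraries cannot go below 0.333, so none was used. DESeq2 1.42.0, limma-voom (limma 3.58.1), scaling, filter, block and leave-one-out fits were alternatives. Lengths, coordinates and coding sequences came from GENCODE release 29, the same assembly as hg38, whose gene models may differ from those counted. Runs of GGN codons and alignments were computed in Python 3.11.15 (Biopython 1.88).

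The 9 genes and the lists were chosen with earlier results of these data known. Beside the 9 genes and ITGB1, the genes named are, per pathway list, the 3 smallest edgeR p-values at a mean of at least 1 CPM, the 3 genes most like COL8A1 over the libraries, the neighbours of COL8A1 among collagens, and markers. PELO, COL5A2, GP6 and LAIR1 were named after their values were seen. For 1 gene under this rule, the value is not reported here. The 6 pathway lists and 7 marker lists held 171 symbols, all found in the table.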

Additional observations from a re-analysis of the deposited data

How the results depend on the processing

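COL8A1 kept its direction in all 13 alternatives. Its log2 fold change passed the edgeR threshold without a low-count filter (5.44, adjusted p = 0.00737) and without COL8A1 replicate 2 (5.77, 0.0313), and passed in DESeq2 (5.45, 6.25e-72). The number of the 9 genes called was accordingly 1 in each of these, against 0 otherwise; with a library left out it ran from 0 to 1. Over all genes the count of calls, 2 with all libraries, was 17 without a filter (11 higher, 6 lower), 180 in DESeq2 (103 higher, 77 lower), 14 with robust dispersion shrinkage, 1 with the replicate number as a block, and 0 to 3 with each library left out. With the other scaling factors, the filter of 1 CPM in 2 libraries, robust shrinkage, the block and limma-voom, COL8A1 missed the threshold, with adjusted p from 0.0506 to 0.202. The cause of these shifts was not tested.

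Leaving out each library gave log2 fold changes of 5.04 to 5.77 for COL8A1, −0.11 to 0.12 for DDR1, −0.074 to 0.0093 for DDR2, −0.83 to 0.083 for ITGA1, −0.62 to 0.43 for ITGA2 and −2.05 to 0.36 for ITGA10. Counted per receptor and fit, the sign turned 8 times when a library was left out. Without COL8A1 replicate 1 the log2 fold changes were −0.11 for DDR1, 0.0093 for DDR2, 0.083 for ITGA1 and 0.20 for ITGA2. Without NC replicate 2 they were −0.03 for DDR1, 0.43 for ITGA2 and 0.36 for ITGA10, and without COL8A1 replicate 2 it was 0.18 for ITGA10. With the replicate block COL8A1 was at 5.40 (adjusted p = 0.104) and ITGA2 at −0.12, where the SE fell to 0.118, against 0.426 without it. Deviations of same-numbered libraries had a correlation of −0.036 over all genes. A single value over all genes cannot tell whether the numbers pair the libraries for some genes, such as ITGA2 and CLDN4. The main fit used group alone, and the block changed no call among the 9 genes. Per length in place of counts, COL8A1 took 0.0831% of collagen reads in NC cells, against 0.0997% by counts. With 1 library in a group, the lone library is assumed to vary like the others. COL8A2, COL10A1, ITGA1, ITGA10 and ITGA11 are limited by few counts, at most 30 per library, and 2 of them also by spread within a group. Poisson intervals of the ITGA10 counts were 13.8 to 33.3 and 1.09 to 10.2 in COL8A1 replicates 1 and 2. In NC replicates 1 and 2 they were 4.80 to 18.4 and 20.2 to 42.8. For COL8A2 the NC intervals, 0 to 3.69 and 6.92 to 22.2, were also apart, but its COL8A1 intervals overlapped. Same-group intervals of COL10A1, ITGA1 and ITGA11 overlapped. The source of this spread was not tested.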

Other observations

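CLDN4, a tight junction gene of the epithelial marker list, singled out after its values were seen, was at 98.8 and 1.65 CPM in COL8A1 replicates 1 and 2 and at 86.2 and 1.04 CPM in NC replicates 1 and 2. It parted the libraries by replicate number as ITGA2 did, but in the opposite direction, being high where ITGA2 was low.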
